A study of Capra hircus with 25 samples.

Results

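The first postnatal step of the goat liver, from 1 day to 2 weeks of age, was described here through its miRNAs. The animals were kids of the Laiwu black goat, a Chinese breed of domestic goat (Capra hircus). The compared groups were 5 liver libraries at 1 day and 5 at 2 weeks, and 15 further libraries from 4, 8 and 12 weeks entered the same fit. The labels give no treatment, genotype or sex, and both groups are normal liver that differ only in age as labelled. Whether each library is a different kid is not stated, so every p-value reflects only how these libraries vary, part of which may be technical. A miRNA was included when it reached 1 RPM (read counts scaled to a shared library total) or more in at least 5 of these 10 libraries, which took 388 of 463 entries (386 distinct). Of these, 367 carry goat names, which are printed without a prefix, and 21 carry sheep names (oar-). All 388 were among the 405 miRNAs tested across the 5 ages. The 7 entries just inside the threshold had means of 0.908 to 2.52 RPM over the 10 libraries, and the 9 just outside had 0.787 to 0.977 RPM.

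A miRNA is cut from a hairpin precursor, one of whose arms (5p or 3p) is usually kept as the guide that leads the silencing complex to messenger RNAs. Newborn liver leaves its fetal tasks, blood formation and growth driven by insulin-like growth factor II, and takes up the metabolism of a milk diet rich in fat. miR-122 is the dominant miRNA of hepatocytes, while a bulk liver library also holds miRNAs of blood, vessel, stellate and bile duct cells. In such libraries fewer cells of a type and less RNA per cell cannot be told apart.

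The 10 libraries held between 7169662 and 11551690 miRNA reads as estimated from the steps in the values, so that 1 read was worth 0.0881 to 0.142 RPM, and 426 to 442 entries had a read. A count of 0 allows up to 3 reads, or 0.264 to 0.425 RPM, for counting error only. In a principal component analysis of the 10 libraries the first component ran from −5.99 to −1.51 at 1 day and from 0.22 to 7.81 at 2 weeks. Hepatocyte miRNAs were abundant in every library, with a summed level of 240633 to 278813 RPM at 1 day and 224199 to 286336 RPM at 2 weeks. The pancreas and endocrine list held 624 RPM or more in every library, nearly all of it miR-7-5p, while miR-217-5p and miR-216b stayed under 5 RPM.

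Between 1 day and 2 weeks 23 of the 405 tested miRNAs (5.68%) changed at an adjusted p under 0.05. Of these, 4 were higher at 2 weeks (0.988% of those tested) and 19 were lower (4.69%), and all 23 were among the 388. Among the lower ones were miR-483 and miR-335-5p, which lie within imprinted genes, and miR-135b-5p. The higher ones were the muscle miRNAs miR-1 and miR-133a-3p, the lymphocyte miRNA miR-150, and miR-29a-3p. An unadjusted p under 0.05 was reached by 106 miRNAs, 18 higher and 88 lower. For 23 miRNAs (5.68%) the ranges of the deposited values were separate between both ages. They comprised 22 lower at 2 weeks (5.43%) and 1 higher (0.247%), and 11 of those 22 were called. Overlap is judged on the deposited values throughout and was not examined after another scaling. The count of calls was 15 without 1-day replicate 1 and also 15 without 2-week replicate 4. The higher calls numbered 1 without 1-day replicate 3, 2 without 2-week replicate 4 and 7 without 2-week replicate 1, and the lower calls 12 without 1-day replicate 1.

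The split between higher and lower depended on the scaling. Over the 388 miRNAs the median log2 change was −0.20, with 282 negative and 106 positive. Median-ratio scaling, which sets the typical miRNA equal between libraries, divided the 1-day libraries by 1.13 to 1.34 and the 2-week libraries by 0.99 to 1.09. The median log2 change was then 0.01, and 30 miRNAs were called (7.41%), 22 higher (5.43%) and 8 lower (1.98%). In both scalings, as also with trimmed-mean (TMM) scaling and with the total taken without the 10 most abundant miRNAs, 12 miRNAs were called in 1 direction. Of these 12, miR-1, miR-133a-3p, miR-150 and miR-29a-3p were higher. The lower ones were miR-483, miR-335-5p, miR-135b-5p, miR-197-3p, miR-500-5p, miR-1307-5p, miR-96 and miR-129-5p. A further 11 lower calls belong to the deposited scaling and were not made after median-ratio scaling, and 18 higher calls were made only after it.

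**Figure D1:**
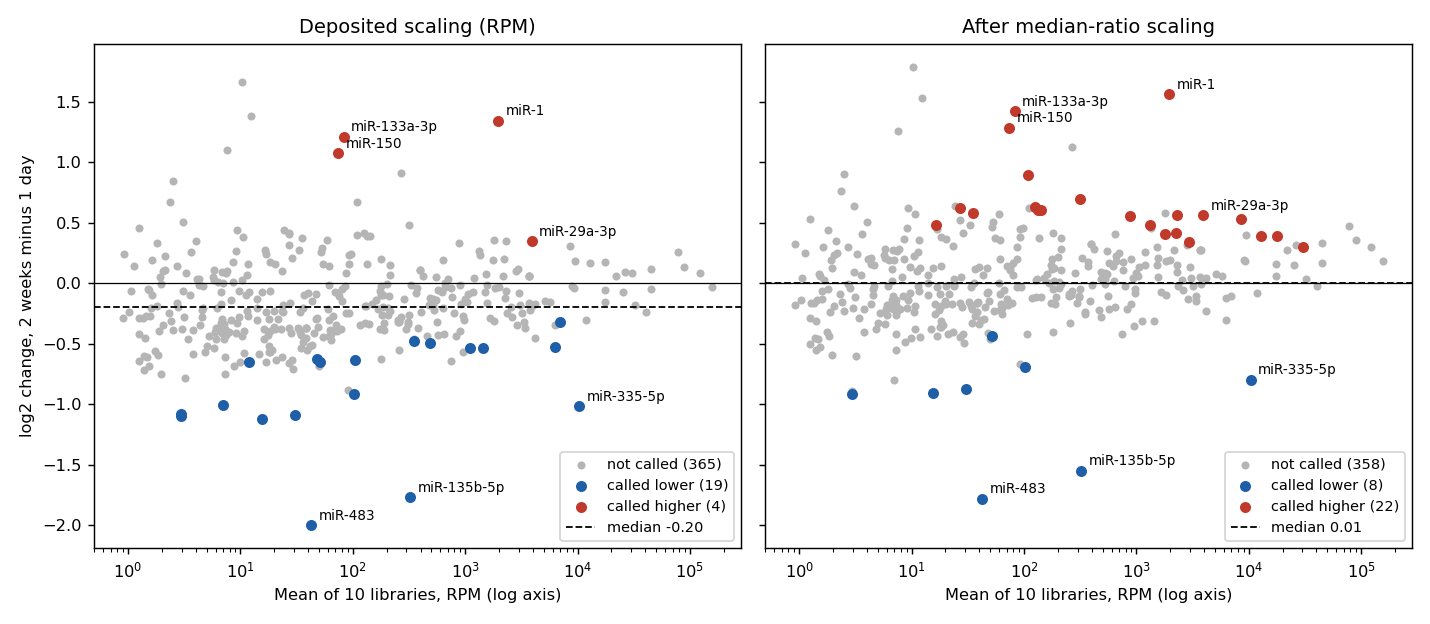
Log2 change from 1 day to 2 weeks (vertical axis) against the mean of the 10 libraries in RPM (horizontal log axis) for the 388 miRNAs, in the deposited scaling (left) and after median-ratio scaling (right). Blue and red points were called lower and higher; the dashed median moves from −0.20 to 0.01, and the calls move from 4 higher and 19 lower to 22 higher and 8 lower, while miR-483, miR-135b-5p and miR-335-5p stay lowest among the labelled miRNAs.

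The imprinted-host miRNAs had the lowest median of all lists. miR-483 lies within the gene of insulin-like growth factor II (IGF2), a fetal growth factor, in the goat annotation (RefSeq, assembly ARS1.2, used for names only). The 1-day libraries, in order of replicate, held 56.8, 63.2, 126, 60.0 and 40.6 RPM, and the 2-week libraries 21.4, 12.0, 17.9, 10.4 and 17.7 RPM. Every 2-week library was below every 1-day library, and 1-day replicate 3 stood highest. miR-483 was 4.00-fold lower (log2 change −2.0 ± 0.33 SE, n = 5 each, adjusted p = 0.000719), and the change ranged from −2.16 to −1.76 when 1 library was left out.

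miR-335 lies within MEST, an imprinted gene expressed from the paternal allele. Its 5p arm was the most abundant of the changed miRNAs, with 15404, 15089, 12835, 10457 and 15596 RPM at 1 day. At 2 weeks the libraries held 5299, 6094, 8624, 7389 and 6968 RPM. All 5 fell below the lowest 1-day library, and the level was 2.02-fold lower (log2 change −1.02 ± 0.20 SE, adjusted p = 0.0028). The 3p arm of the same hairpin overlapped between ages, 656 RPM on average at 1 day against 478 RPM at 2 weeks, a difference short of the threshold (log2 change −0.43, adjusted p = 0.294). The remaining entry of the list, miR-296-3p, lies in no annotated goat gene and did not pass either (log2 change −0.65, adjusted p = 0.161). In this list 2 of 4 miRNAs fell, against 4.69% of all tested, and none rose, and its median log2 change was −0.83, against −0.20 over the 388 miRNAs. The list was chosen with earlier results of these data known, and 2 of its 4 entries are the arms of miR-335, so these shares only describe it. After median-ratio scaling the list median was −0.62 and both calls were made again.

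miR-135b-5p, known in human colon cells as a repressor of the tumour suppressor APC, dropped by most after miR-483. At 1 day the libraries held 583, 346, 484, 530 and 541.6 RPM. At 2 weeks they held 72.6, 154, 165, 151 and 215 RPM, all of them below the lowest 1-day library. The level was 3.40-fold lower (log2 change −1.77 ± 0.46 SE, adjusted p = 0.0205), a call missed without 1-day replicate 1 (adjusted p = 0.0572).

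miR-197-3p and miR-129-5p fell with no overlap between ages. miR-197-3p had 125, 134, 165, 121 and 127 RPM at 1 day and 85.4, 53.1, 74.3, 66.8 and 77.3 RPM at 2 weeks. The highest 2-week library thus stayed well under the lowest 1-day library, and the level was 1.88-fold lower (log2 change −0.91 ± 0.17 SE, adjusted p = 0.0028). miR-129-5p, better known from brain, was rare in liver, with 5.34, 2.33, 6.80, 4.20 and 3.62 RPM at 1 day and 1.88, 1.76, 1.5, 0.81 and 1.43 RPM at 2 weeks. These low levels rest on few reads, and the change of −1.10 ± 0.26 on the log2 scale (adjusted p = 0.0119) is understated by the 1 RPM added before taking logs. The 3p arm of miR-129 was not called (log2 change −0.45, adjusted p = 0.173). Of the 5 neural miRNAs measured, 1 fell, against 4.69% of all tested, and none rose. miR-9-5p and miR-9-3p had log2 changes of 0.26 and 0.16 and were not called. miR-128-3p, another of them, was lower in all 5 libraries at 2 weeks (249 to 344 RPM against 383 to 421 RPM) without passing the test (adjusted p = 0.0859).

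miR-1307-5p and miR-96 fell with a slight overlap. miR-1307-5p went from 50.8, 48.3, 25.1, 39.0 and 45.1 RPM to 22.2, 10.2, 25.2, 14.6 and 25.3 RPM, where only 1-day replicate 3 came down to the 2-week range (log2 change −1.09 ± 0.25 SE, adjusted p = 0.0106). The more abundant 3p arm of miR-1307 went from 73.1 to 55.1 RPM on average and was not called (log2 change −0.42). miR-96 went from 22.4, 13.7, 31.2, 20.7 and 19.4 RPM to 6.07, 10.1, 9.93, 6.49 and 14.7 RPM, and only 1-day replicate 2 and 2-week replicate 5 crossed (log2 change −1.12 ± 0.25 SE, adjusted p = 0.0106). miR-96 is transcribed with miR-182 and miR-183, a cluster known from sensory cells. Those neighbours were lower on average without passing the test, miR-182 at 62.0 against 38.1 RPM (adjusted p = 0.132) and miR-183 at 32.8 against 20.9 RPM (adjusted p = 0.103).

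**Figure D2:**
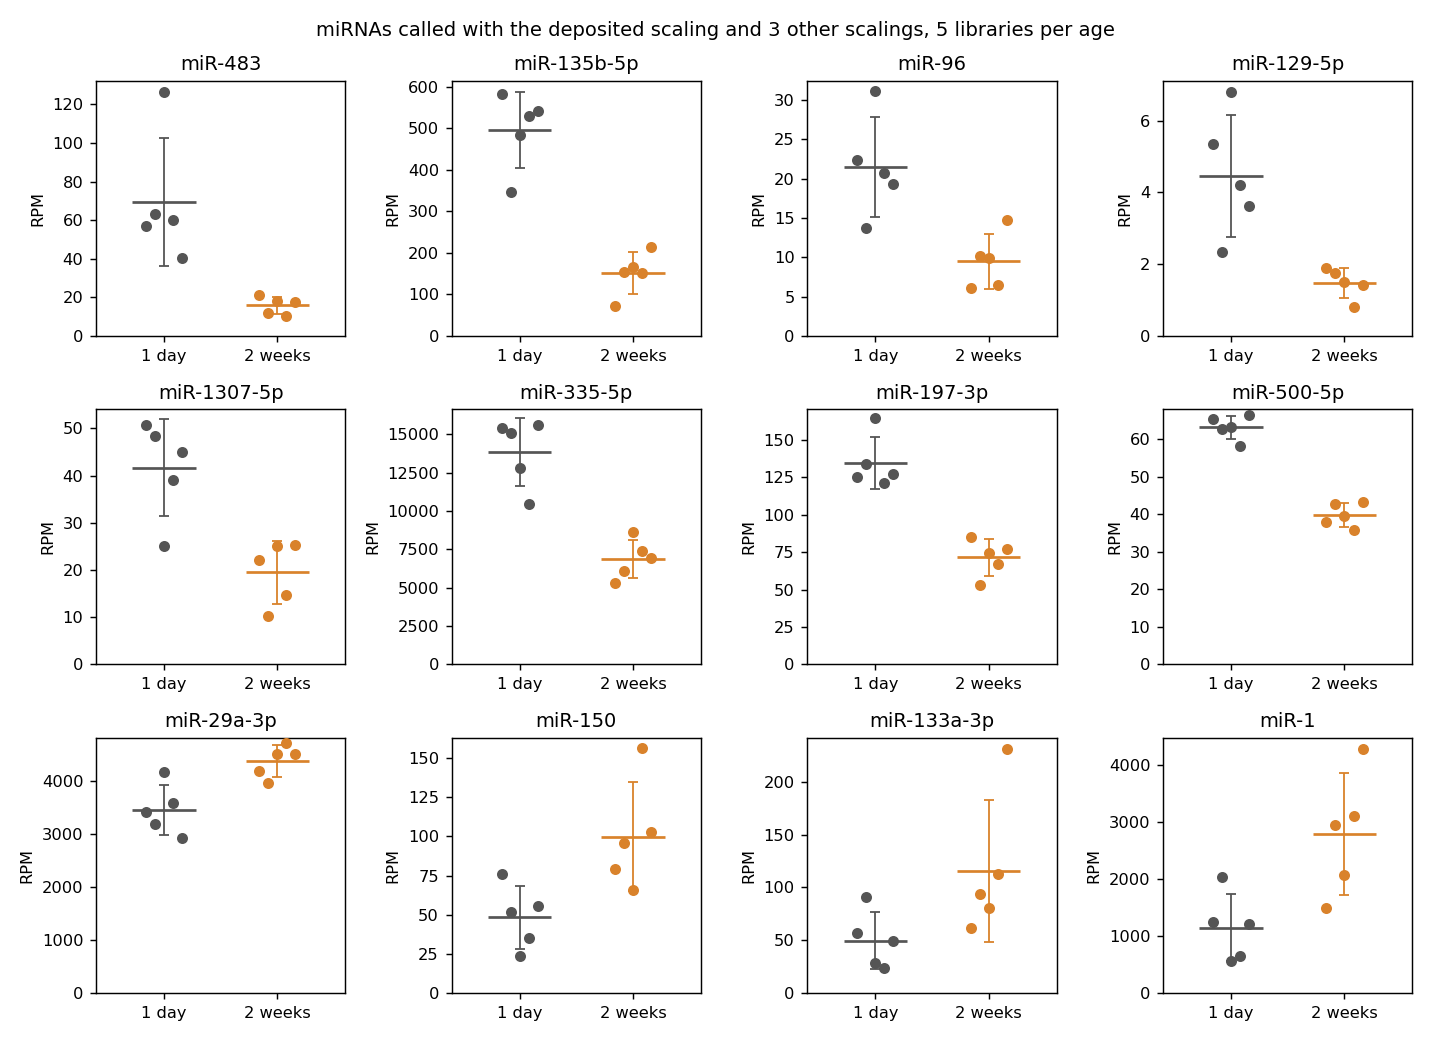
RPM in each of the 5 libraries at 1 day (grey) and 2 weeks (orange) of the 12 miRNAs called in 1 direction under 4 scalings; horizontal lines are means and error bars SD, and each vertical axis starts at 0. miR-483, miR-135b-5p, miR-129-5p, miR-335-5p, miR-197-3p and miR-500-5p show no overlap between ages, while the 4 higher miRNAs overlap.

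Among 11 miRNAs of an X-linked cluster 3 fell, against 4.69% of all tested. miR-500, miR-362, miR-660 and miR-502a sit together in CLCN5, a chloride channel gene, on goat chromosome X, and miR-532 belongs to the same cluster in human and mouse. All 11 measured miRNAs had a negative change, none was called higher, with a median of −0.47. miR-500-5p had 65.3, 62.7, 63.2, 58.3 and 66.4 RPM at 1 day and 37.9, 42.7, 39.6, 35.7 and 43.4 RPM at 2 weeks. It varied little within an age, the groups lay wide apart, and it was 1.57-fold lower (log2 change −0.65 ± 0.15 SE, adjusted p = 0.0106). miR-532-5p fell from 397, 447, 380, 401 and 396 RPM to 275, 296, 318, 253 and 314 RPM, again with no overlap (log2 change −0.47 ± 0.11 SE, adjusted p = 0.0121). miR-362-3p was just past the threshold, from 58.2 ± 13.5 to 37.3 ± 8.42 RPM (SD, n = 5, adjusted p = 0.0496), and its call was missed in 6 of 10 fits that left out a library. After median-ratio scaling the median of the 11 was −0.25, 9 of them were negative, and only miR-500-5p was called. The other X-linked cluster, miR-424, miR-542 and miR-450, had 6 negative changes of 6 and no call. Its median was −0.29, and −0.07 after median-ratio scaling.

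The lipid and glucose list held 3 lower miRNAs and no higher one among 18 tested, against 4.69% lower and 0.988% higher over all tested. miR-33a and miR-33b lie within SREBF2 and SREBF1, the genes of the transcription factors that drive cholesterol and fatty acid synthesis, and in human cells both repress the cholesterol exporter ABCA1. miR-33a-5p had 13.7, 12.1, 5.10, 10.6 and 6.98 RPM at 1 day and 5.41, 3.17, 6.69, 1.72 and 4.95 RPM at 2 weeks. miR-33b-5p had 5.87, 6.18, 1.98, 2.56 and 4.78 RPM at 1 day and 1.33, 0.26, 2.77, 0.51 and 3.25 RPM at 2 weeks. Both overlapped, with 1-day replicate 3 among the low values of each. The log2 changes were −1.0 ± 0.30 for miR-33a-5p (adjusted p = 0.0425) and −1.08 ± 0.31 for miR-33b-5p (adjusted p = 0.0379).

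Each miR-33 call was missed in 5 of 10 fits that left out a library, and neither was made after median-ratio scaling (adjusted p = 0.0961 and 0.0875). The third lower miRNA of the list was miR-96, described above. miR-378-3p, which in mouse acts on mitochondrial metabolism and is encoded in PPARGC1B there, went from 1144 to 774 RPM without passing the test (adjusted p = 0.0619). miR-27a-3p and miR-103-3p were not called in the deposited scaling (log2 changes 0.19 and 0.27) and were called higher after median-ratio scaling (0.41 and 0.48). The list median was −0.19, close to the −0.20 over the 388 miRNAs.

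There were 7 further lower calls. miR-130a-3p went from 128 ± 22.2 to 82.6 ± 15.8 RPM (SD, n = 5) and miR-628-5p from 14.6 ± 1.19 to 9.09 ± 2.09 RPM, both without overlap and both called in each fit that left out a library. miR-30c-5p, which in human and mouse represses the lipoprotein assembly protein MTTP, went from 7340 ± 796 to 5159 ± 968 RPM without overlap. miR-186-5p went from 7669 ± 367 to 6136 ± 306 RPM, also without overlap. miR-3431-5p, miR-125a-5p and miR-374b-5p fell by 0.53, 0.53 and 0.49 on the log2 scale with overlap. All 7 belong to the 11 lower calls that were not made after median-ratio scaling.

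The calls of miR-30c-5p, miR-186-5p, miR-125a-5p and miR-374b-5p were each missed in at least 5 of 10 fits without 1 library. Without 1-day replicate 3, which was the highest for miR-125a-5p (2187 RPM against 1461 to 1611 RPM), its adjusted p was 0.102. In the miR-30 family, known in zebrafish for its part in bile duct development, miR-30c-5p was the 1 call of 11 members. miR-30a-5p, the most abundant, had 71267 RPM on average at 1 day and 83875 RPM at 2 weeks and did not pass (adjusted p = 0.24).

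The largest called rises were those of striated muscle miRNAs. miR-1 and miR-133a are made from shared transcripts in heart and skeletal muscle. miR-1 had 1251, 2043, 565, 655 and 1205 RPM at 1 day and 1488, 2955, 2072, 3113 and 4288 RPM at 2 weeks. All but 1 of the 1-day libraries lay below the lowest 2-week library, and the level was 2.54-fold higher (log2 change 1.35 ± 0.34 SE, adjusted p = 0.017). miR-133a-3p had 56.7, 90.5, 28.04, 23.6 and 49.1 RPM at 1 day and 61.4, 93.4, 80.2, 113 and 231 RPM at 2 weeks. Here too a single 1-day library, replicate 2, reached into the 2-week range, and the level was 2.32-fold higher (log2 change 1.21 ± 0.31 SE, adjusted p = 0.0173). Without 1-day replicate 3 the adjusted p of both was 0.0594.

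The whole muscle list, 6 tested miRNAs of which 4 reached the inclusion threshold, had 2 higher, against 0.988% of all tested, and none lower. Its summed level was 646 to 2186 RPM at 1 day and 1573 to 4595 RPM at 2 weeks, nearly all of it miR-1. miR-206, the skeletal muscle member, was at or under 0.72 RPM at 1 day and at 0.44, 1.15, 1.15 and 0.30 RPM in 2-week replicates 1 to 4, against 31.9 RPM in replicate 5. That library was also the highest for miR-1 and miR-133a-3p; without it their log2 changes were 1.17 (adjusted p = 0.0442) and 0.93 (adjusted p = 0.0509), and the part of skeletal muscle in the rises was not tested. miR-499-5p, of heart and slow muscle, moved the other way, 41.7 to 54.1 RPM at 1 day and 22.5 to 41.2 RPM at 2 weeks, with no overlap and an adjusted p of 0.0605.

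Of the leukocyte miRNAs, miR-150 alone was called. miR-150 marks mature lymphocytes. It had 76.0, 51.7, 23.4, 35.3 and 55.7 RPM at 1 day and 79.1, 95.6, 65.7, 156 and 103 RPM at 2 weeks. The libraries overlapped only through 1-day replicate 1, and the level was 2.11-fold higher (log2 change 1.07 ± 0.27 SE, adjusted p = 0.017), a call missed without 2-week replicate 4 (adjusted p = 0.0638) and without 1-day replicate 3 (adjusted p = 0.0594). The former library was also the highest for miR-146a (3052 RPM against 915 to 1309 RPM in the other 2-week libraries), a miRNA induced by inflammatory signalling, and for miR-146b-5p (303 RPM against 70.9 to 165 RPM). The myeloid miR-223-3p overlapped in full (log2 change −0.02). In all, 1 of 9 leukocyte miRNAs rose, against 0.988% of all tested, and none fell, with a list median of 0.19. After median-ratio scaling miR-146b-5p was called higher as well (log2 change 0.89).

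miR-29a-3p, a repressor of collagen genes, rose by a small amount against a small spread. It had 3416, 3193, 4180, 3583 and 2930 RPM at 1 day and 4184, 3961, 4513, 4726 and 4508 RPM at 2 weeks. Only 1-day replicate 3 and 2-week replicate 2 crossed, and the level was 1.27-fold higher (log2 change 0.35 ± 0.10 SE, adjusted p = 0.0425). The call was missed in 6 of 10 fits without 1 library, with a highest adjusted p of 0.121 without 2-week replicate 4. miR-29b-3p and miR-29c-3p, with which it shares its seed, did not pass (log2 changes 0.16 and −0.05).

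Lists of other cell types showed no call in the deposited scaling. The erythroid miRNAs miR-363-3p, miR-451-5p and both arms of miR-144 all had positive changes (median 0.34) with none called. miR-451-5p had 1244 to 1976 RPM at 1 day, while at 2 weeks the libraries were split, with 2200, 3289 and 2927 RPM in replicates 1, 2 and 4 and 1097 and 1020 RPM in replicates 3 and 5. Mesenchymal miRNAs had a median of 0.06 over 12 tested, which include miR-199b and miR-199c with the same means in both arms. Endothelial miR-126 had a median of −0.12 over both arms, and the biliary miR-200 family −0.16 over 5. miR-200a came closest to the threshold, 903 RPM on average at 1 day against 576 RPM at 2 weeks (adjusted p = 0.0509).

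**Figure D3:**
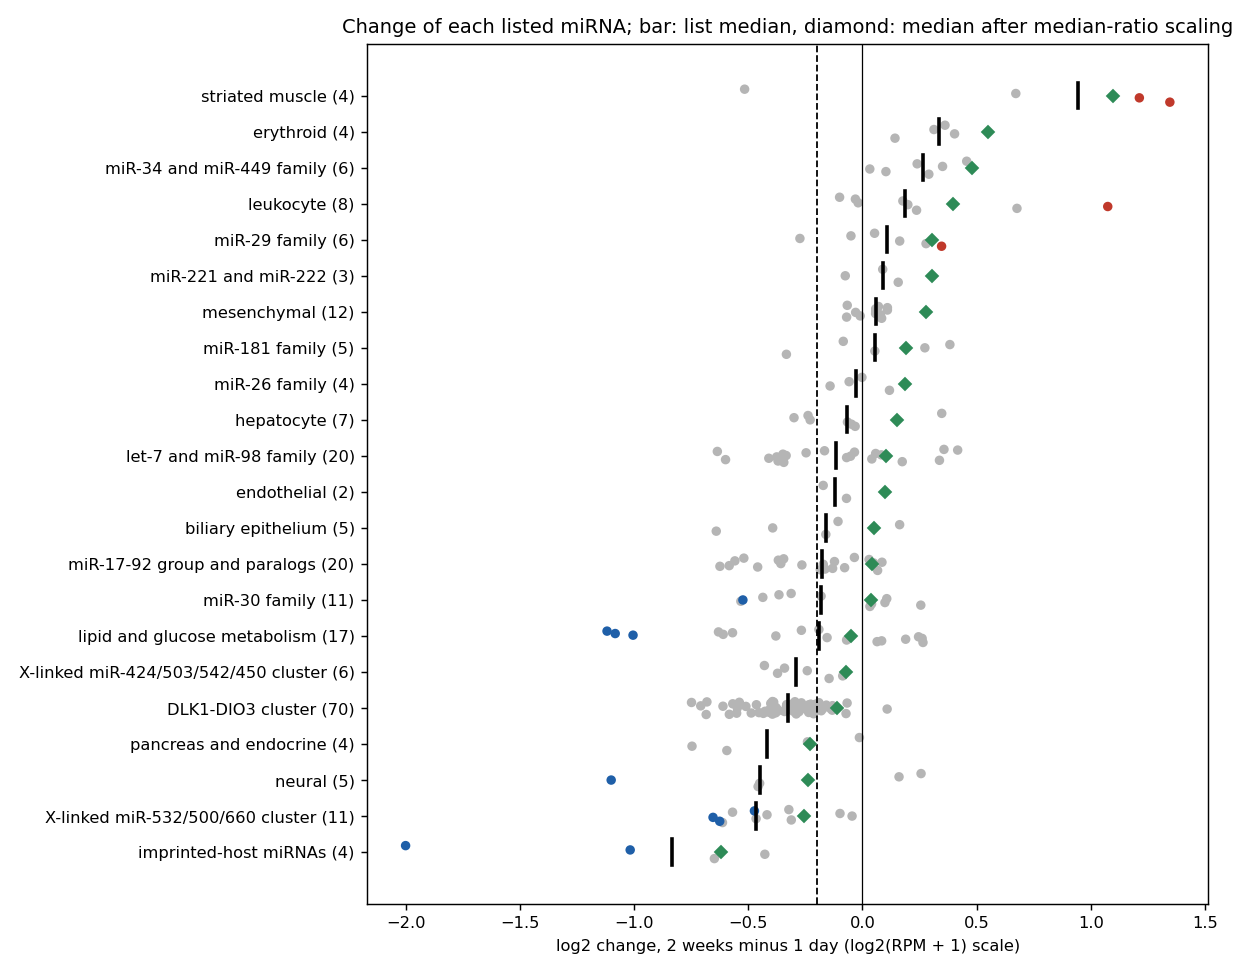
Log2 change from 1 day to 2 weeks of each miRNA in 22 lists (number of miRNAs in brackets; blue called lower, red called higher, grey not called), with black bars for list medians, green diamonds for list medians after median-ratio scaling and a dashed line at the median of the 388 miRNAs, −0.20. The imprinted-host list has the lowest median (−0.83) and the striated muscle list the highest (0.94).

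The DLK1-DIO3 cluster is an imprinted run of miRNAs expressed from the maternal allele and high in fetal tissue. None of its 71 tested miRNAs was called in the deposited scaling (5.68% of all tested) or after median-ratio scaling (7.41%). Among the 70 that reached the inclusion threshold, 69 had a negative change, against 282 of all 388, with a median of −0.33 against −0.20. The 70 include miR-376b-5p and miR-376e-5p, which had the same means. After median-ratio scaling 54 of the 70 were negative, against 191 of the 388, and the median was −0.11 against 0.01. Its most abundant member, miR-379-5p, had 3928 to 4379 RPM at 1 day and 2939 to 4614 RPM at 2 weeks, with full overlap (log2 change −0.19, adjusted p = 0.39). Over the cluster the summed level was 19697 to 24199 RPM at 1 day and 15814 to 23490 RPM at 2 weeks.

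The abundant hepatocyte miRNAs were not called. miR-122 had 173609, 171611, 157204, 135914 and 151725 RPM at 1 day and 180882, 146350, 155435, 135834 and 154869 RPM at 2 weeks. The ages overlapped throughout (log2 change −0.03 ± 0.12 SE, adjusted p = 0.85). None of the 7 hepatocyte entries was called, with a list median of −0.07. After median-ratio scaling the median was 0.15 and 1 entry, the sheep-named oar-miR-194, was called higher (log2 change 0.57, and 0.35 in the deposited scaling). The goat entry miR-194 and miR-192-5p, both known from hepatocytes and gut, had log2 changes of −0.24 and −0.30 (both adjusted p = 0.107). miR-22-3p was the 1 miRNA with every 2-week library above every 1-day library, 13243 to 14097 RPM against 10649 to 13102 RPM, a 1.13-fold difference called only after median-ratio scaling (adjusted p = 0.27 and 0.00464).

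Reads became more concentrated. The 10 most abundant miRNAs held 64.6% ± 0.93 of the total at 1 day and 66.6% ± 0.94 at 2 weeks (SD, n = 5 each), or 2.03 points more at 2 weeks (p = 0.0159, two-sided exact permutation test). For the 5 most abundant the shares were 46.9% ± 0.94 and 49.8% ± 0.74 (exact p = 0.00794, the smallest that 252 arrangements can give). For the 20 most abundant the difference of 1.29 points did not pass (exact p = 0.0794). The 71 miRNAs above 1000 RPM had a median log2 change of −0.07, whereas the 108 under 10 RPM had −0.27. The abundant ones were also the more precisely measured, with a median coefficient of variation at 1 day of 10.8% above 1000 RPM and 28.3% under 10 RPM.

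The 2 arms of a hairpin come from 1 precursor, and a library's scaling enters both, so that it cancels from their ratio except where an arm is near the 1 RPM added before taking logs. An entry can also hold reads of more than 1 precursor. For instance, miR-376b-5p and miR-376e-5p had the same means, 43.8 RPM at 1 day and 33.1 RPM at 2 weeks. Of 132 hairpins with both arms measured, 3 changed their ratio of 5p to 3p arm (2.27%), and 24 had an unadjusted p under 0.05. For let-7c, the log2 ratio was 8.77, 8.91, 8.33, 8.26 and 9.13 at 1 day and 9.40, 9.13, 8.97, 9.57 and 9.53 at 2 weeks, a change of 0.64 ± 0.16 (SE, adjusted p = 0.0343). The ages overlapped slightly, and the 3p arm stood at only 1.86 and 0.932 RPM on average. For let-7b the ratio was 6.70, 6.30, 6.13, 6.81 and 6.48 at 1 day and 7.16, 7.62, 6.93, 7.09 and 7.15 at 2 weeks, without overlap (change 0.71 ± 0.19 SE, adjusted p = 0.0367). Its 3p arm was also rare, at 7.76 and 5.64 RPM on average. Both let-7 calls thus rest on 3p arms under 10 RPM, and only 1 ratio was called when both arms needed a mean of at least 10 RPM.

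The let-7 family, regulators of growth and of the switch from fetal to adult gene programmes, thus held 2 of the 3 called ratios. All 9 hairpins of let-7 and miR-98 had a positive change of the ratio, from 0.21 to 0.71 with a median of 0.42, while over the 132 hairpins 70 were positive and the median was 0.02. All 9 had the larger 5p arm, whereas the 132 also hold 53 hairpins with the larger 3p arm at both ages. In those a fall of the minor arm raises no ratio but lowers it, so the 132 are not a like background. Other hairpins with the larger 5p arm went both ways, such as miR-21 (0.55), miR-93 (0.48), miR-99b (−0.33) and miR-125b (−0.48). The first 3 of these were picked after their values were seen. Directions over all 78 hairpins with the larger 5p arm at both ages were not counted. Whether the shift is particular to this family was therefore not tested. Apart from let-7b and let-7c none of the 9 passed the test (let-7a adjusted p = 0.114). Each of the 9 3p arms had a negative log2 change in both scalings, with medians of −0.37 and −0.18. The 11 other entries of the family had a median of 0.06, and all 11 were positive after median-ratio scaling, with a median of 0.28. As single miRNAs none of the 20 entries was called in the deposited scaling, against 5.68% of all tested. After median-ratio scaling 4 of the 20 were called higher, against 5.43% of all tested.

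The ratio of miR-125b, which lies near let-7 genes in mammals, moved toward the 3p arm. The log2 ratio was 5.37, 5.22, 5.67, 5.35 and 5.07 at 1 day and 4.60, 4.99, 4.74, 4.96 and 4.98 at 2 weeks. Every 2-week library was below every 1-day library (change −0.48 ± 0.11 SE, adjusted p = 0.0199). The sheep-named entry oar-miR-125b was not part of this ratio and was not called (log2 change −0.65). Whether the 2 arms came from the same precursors was not tested. miR-335 had a change of −0.59 ± 0.21 toward its 3p arm that did not pass (adjusted p = 0.116). The 5p arm was the larger at both ages for 78 hairpins and the 3p arm for 53, and 1 switched. No ratio was called when only the 10 libraries were fitted (smallest adjusted p = 0.0945) or without 1-day replicate 3 (0.0647). A single ratio was called without 2-week replicate 4 or 5, and 5 were called without 2-week replicate 1 or 3.

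**Figure D4:**
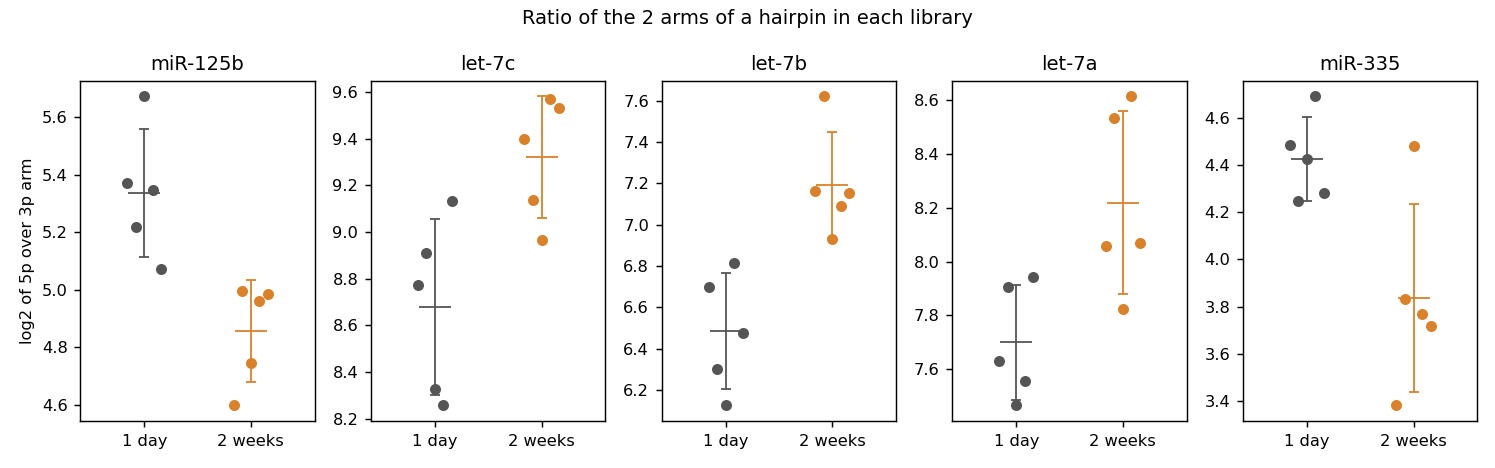
Log2 ratio of the 5p arm to the 3p arm (vertical axes, which do not start at 0) in each of 5 libraries at 1 day (grey) and 2 weeks (orange) for 5 hairpins, with means and SD. The ratio fell for miR-125b (change −0.48) and rose for let-7c (0.64) and let-7b (0.71); let-7a and miR-335 did not pass the test.

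Some miRNAs that were not called had 1 to 3 libraries at 2 weeks far above the others. They were picked after their values were seen. miR-767 had 1.27 to 7.17 RPM at 1 day and 0.88, 20.9, 26.6, 39.4 and 1.56 RPM at 2 weeks (adjusted p = 0.136). miR-105a showed the same split, with 31.6, 24.5 and 47.4 RPM in replicates 2, 3 and 4 and 0.55 and 1.30 RPM in replicates 1 and 5 (adjusted p = 0.237). In human both lie in the X-linked GABRA3 gene. miR-10b-5p, of the HOX gene clusters, reached 1390 RPM in 2-week replicate 5 and 408 RPM in replicate 2, against 62.8 to 145 RPM in the others and 56.1 to 214 RPM at 1 day (log2 change 0.91, adjusted p = 0.309). miR-34c-5p, a p53 target, had 190 and 225 RPM in 2-week replicates 3 and 5 and 40.4 to 64.7 RPM in the others.

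How the first step compared with later ones was tested as a difference of changes. The first and second steps share the 2-week libraries. miR-483 had means of 69.4, 15.9, 13.8, 10.6 and 10.8 RPM at 1 day, 2, 4, 8 and 12 weeks. Its fall was thus nearly complete at 2 weeks, and the first step differed from the last (8 to 12 weeks) by −1.98 ± 0.46 on the log2 scale (adjusted p = 0.0441). The erythroid miR-144-5p was the other miRNA whose first and last steps differed (2 of 405, 0.494%), by 1.37 ± 0.30 (adjusted p = 0.0441), with means of 91.5 and 128 RPM at 1 day and 2 weeks and 126 and 66.0 RPM at 8 and 12 weeks. In 20 fits that left out 1 library each, the difference was called in 3 for miR-483 and in 8 for miR-144-5p, and without 2-week replicate 4 the adjusted p of both was 0.125. Between the first step and the second (2 to 4 weeks) no difference was called by limma, and 29 of 405 had an unadjusted p under 0.05. The smallest adjusted p (limma) was 0.361, and 0.0648 after median-ratio scaling. On the first principal component of all 25 libraries, 4-week replicates 1 and 2 stood at 3.04 and 5.12. Replicates 3 to 5 of that age stood at −4.88 to −2.39. With the 4-week libraries so split, a lack of calls does not show the steps to be alike.

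The changed miRNAs followed different courses after 2 weeks. miR-335-5p had means of 13876, 6875, 5245, 3904 and 2996 RPM at the 5 ages, lower at each age. miR-135b-5p had 497, 151, 89.3, 190 and 233 RPM, lowest at 4 weeks, though no later step of it was called (smallest adjusted p = 0.242). miR-197-3p went from 134 to 71.4 RPM and stood at 59.8 RPM at 12 weeks. miR-1 had 1144, 2783, 4662, 7020 and 9221 RPM, and miR-150 48.4, 99.9, 118, 198 and 236 RPM. Of the 23, only miR-29a-3p was also called between 2 and 4 weeks (4378 to 5947 RPM, adjusted p = 0.0139).

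**Figure D5:**
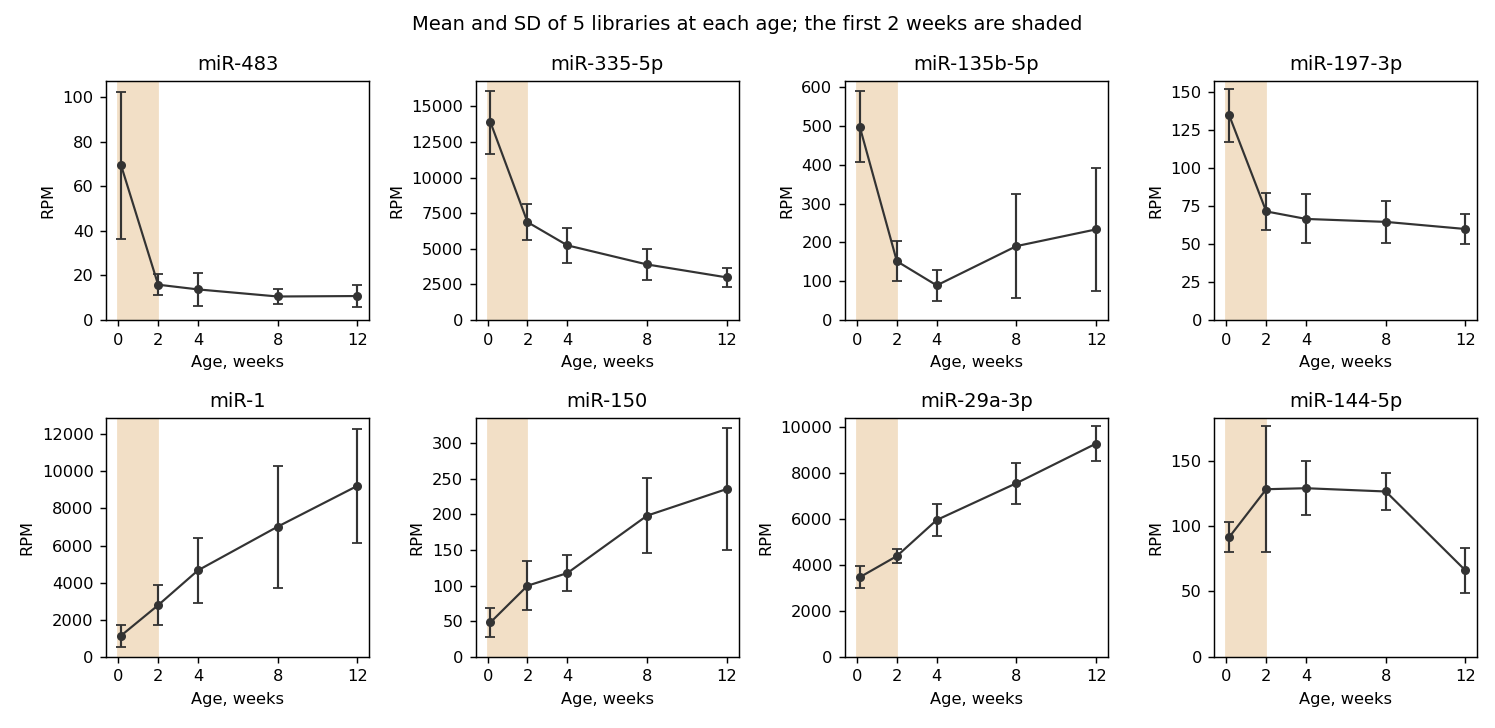
Mean RPM with SD of 5 libraries (vertical axes from 0) against age in weeks for 8 miRNAs, with the first 2 weeks shaded. miR-483 falls from 69.4 to 15.9 RPM within the shaded span and stays near 10.8 RPM, miR-335-5p is lower at each age, miR-1, miR-150 and miR-29a-3p are higher at each age, and miR-144-5p drops after 8 weeks.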

How the data were processed

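Frozen liver was extracted with Trizol and sequenced, per the labels' protocols, which name a stranded total RNA kit; the submitters' processing notes name Bowtie 1.1.1. No source used here gives the small RNA selection, genome build, annotation or multi-mapping rule. The authors deposited RPM values, a unit read from the values themselves, whose columns sum to 1010981 to 1018216. Near-identical entries can share or divide reads and are uncertain. A read assigned to several entries counts in each, so the estimated miRNA read totals can include repeats.

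Values were taken as log2(RPM + 1), and the 405 miRNAs reaching 1 RPM in 5 or more of the 25 libraries were tested with limma 3.58.1 (R 4.3.3), using a variance trend and a separate mean for each age over the 25 libraries; adjusted p-values are Benjamini-Hochberg over all 405, or over 132 arm ratios. Log2 changes understate low miRNAs. Figures used matplotlib 3.10.9.

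The inclusion rule and lists were chosen with earlier results of these data known; miR-345 was removed from the DLK1-DIO3 list after its values were seen, since it lies outside the cluster. Named are all called miRNAs, the 10 smallest p after median-ratio scaling, the 10 most abundant, up to 3 most abundant per list, and the 5 smallest p of each ratio or step test; oar-miR-194, miR-182, miR-183, miR-296-3p, miR-378-3p, miR-192-5p, miR-206, miR-146b-5p, miR-223-3p, miR-363-3p, miR-216b, miR-502a, miR-767, miR-105a and miR-10b-5p were added after their values were seen. Also added after their values were seen were oar-miR-125b, miR-1307-3p, miR-376b-5p, miR-376e-5p, miR-199b-5p, both arms of miR-199c and the ratios of miR-21, miR-93 and miR-99b. Alternatives covered scaling (RLE, TMM, total without the top 10), filter, pseudocount (0.1 and 10 RPM), the 10 libraries alone, a replicate block, and leaving out each library. Of 388 miRNAs, 348 matched an annotated goat miRNA (RefSeq, ARS1.2). No 2 libraries of an age agreed within sampling noise (lowest chi-square per degree of freedom 94.7).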

Additional observations from a re-analysis of the deposited data

Results flagged for a closer look

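Among 97 named miRNAs, 194 groups of 5 libraries were examined for a single library far from the other 4, by the gap to its nearest neighbour over the whole range. Chance flags about 1 in 20 groups, and 7 of 194 were found. miR-125a-5p in 1-day replicate 3 stood high at 2187 RPM against at most 1611 RPM (gap ratio 0.794). miR-483 in the same library stood at 126 RPM against at most 63.2 RPM (0.736), and miR-144-5p there stood low at 71.4 RPM against at least 92.1 RPM (0.737). In 2-week replicate 4, miR-146a was high at 3052 RPM against at most 1309 RPM (0.816) and miR-181d low at 7.51 RPM against at least 12.5 RPM (0.765). miR-542-3p was high in 2-week replicate 3, 7560 RPM against at most 5489 RPM (0.792), and let-7c-3p in 2-week replicate 2, 2.03 RPM against at most 0.81 RPM (0.718).

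The first step (1 day to 2 weeks) and the last (8 to 12 weeks) differed for miR-144-5p by 1.37 and for miR-483 by −1.98 on the log2 scale (limma, both adjusted p = 0.0441).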

How the results depend on the processing

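Scaling had the widest effect. Median-ratio scaling gave 22 higher and 8 lower calls with a median log2 change over the 405 tested miRNAs of 0.017 in place of −0.19, and TMM scaling gave 23 and 8 with 0.022; both turn the sign of the median. With the total taken without the 10 most abundant miRNAs, 12 were lower and the median was −0.11. A pseudocount of 10 RPM gave 46 calls, 41 of them lower, a median of −0.11 and 9 arm ratios. Fitting the 10 libraries alone gave 2 higher calls and 0 arm ratios, and arms with a mean of at least 10 RPM gave 1 ratio. Leaving out 1 library gave 15 to 33 calls, 1 to 7 higher, 12 to 26 lower, 0 to 5 arm ratios, and 0 to 8 differences between the first and last steps. The share difference for the 20 most abundant miRNAs was 1.29 points.

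With the replicate number as a block, 19 miRNAs were called (3 higher, 16 lower), and the difference between the first and last steps was called for 0 miRNAs (limma, smallest adjusted p = 0.0638; unadjusted count without the block 41). Same-numbered libraries correlated from −0.21 to 0.33, with 2 of 5 over 0.1 and 1 of 5 closest to its own number. Differently numbered libraries correlated from −0.38 to 0.32. The labels do not say what a replicate number stands for, and these few values cannot tell whether same-numbered libraries share more than it. Leaving out 4-week replicates 1 and 2 together, chosen after seeing the data, again gave 0 differences between the first and second steps. Of the 23 calls, 11 were made in each of the 10 fits without 1 library and 8 were missed in at least 5. No named miRNA turned its direction under a called setting. Count tests on reads recovered from the RPM steps, planned as alternatives, were not run.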
